A study of Mus musculus with 14 samples.

Results

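The 4 Egr genes (Egr1, Egr2, Egr3 and Egr4) and the 2 Nab genes (Nab1 and Nab2) were taken from the count table by their gene symbols, 6 of its 24421 genes. RNA of 7 naive male mice labelled LPAR2-/- and 7 naive male WT mice was sequenced, with 1 library per mouse after removal of ribosomal RNA, and no mouse had received a treatment. The labels name the strain 129.C57Bl6, and both genotypes were bred as parallel colonies, the LPAR2-/- mice as homozygotes that lack a part of exon 2 of Lpar2 and the controls on a mixed C57BL/6 and 129/SvJ background, so that genotype and colony cannot be told apart. The labels give the hippocampus and 10 to 12 weeks of age, whereas the study elsewhere names the dentate gyrus, older mice in general, and, in the series description, middle-aged to aged mice, so the age and the exact region are not known. Markers of dentate granule cells and of all neurons were present in every library, with summed levels of 483 to 762 and 4499 to 5887 CPM (counts scaled to a common library size). Those of CA1 (82.0 to 325 CPM), CA3 (53.0 to 113 CPM), striatum (57.7 to 77.8 CPM) and thalamus (55.0 to 88.9 CPM) were present in every library too, so these sums do not settle the region.

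EGR proteins are zinc finger transcription factors whose genes are switched on within minutes of synaptic activity or growth factor signalling. They share a DNA-binding domain that recognises GC-rich sites of the form GCGNGGGCG, and in the hippocampus they are widely used as readouts of recent neuronal activity. Calcium and ERK signalling reach their promoters through serum response factor with its ELK partners, which bind the CArG box, and through CREB, which binds cAMP response elements with the core TGACG. NAB1 and NAB2 have no DNA-binding domain of their own. They bind EGR1, EGR2 and EGR3, but not EGR4, and recruit the NuRD chromatin remodelling complex, which turns EGR target genes down, and Nab2 is itself induced by EGR proteins as a negative feedback.

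The reference used here held promoter sequences for Egr2, Egr4, Nab1 and Nab2 (RefSeq, GRCm38.p6). The 250 bases before the RefSeq start are shown for Egr2, the member with the largest difference between genotypes, and for Egr4 and Nab1, which carry the other motif matches. They run 5′ to 3′ in the direction of transcription, with matches on either strand to the CArG box (CC, 6 bases of A or T, GG), to TGACG or to GCGNGGGCG in capitals. The Egr2 window is chr10:67537619-67537868 on the plus strand, and those of Egr4 (chr6:85513590-85513839) and Nab1 (chr1:52500449-52500698) are on the minus strand.
Egr2: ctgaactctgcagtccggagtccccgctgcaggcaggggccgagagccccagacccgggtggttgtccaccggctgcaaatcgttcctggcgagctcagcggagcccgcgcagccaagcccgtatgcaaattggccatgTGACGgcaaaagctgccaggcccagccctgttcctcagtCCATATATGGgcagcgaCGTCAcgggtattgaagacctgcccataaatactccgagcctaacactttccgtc
Egr4: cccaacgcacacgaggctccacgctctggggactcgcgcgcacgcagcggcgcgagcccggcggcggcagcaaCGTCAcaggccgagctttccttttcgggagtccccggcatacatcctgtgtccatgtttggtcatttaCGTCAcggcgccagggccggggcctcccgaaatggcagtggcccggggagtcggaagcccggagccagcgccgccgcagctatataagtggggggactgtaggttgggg
Nab1: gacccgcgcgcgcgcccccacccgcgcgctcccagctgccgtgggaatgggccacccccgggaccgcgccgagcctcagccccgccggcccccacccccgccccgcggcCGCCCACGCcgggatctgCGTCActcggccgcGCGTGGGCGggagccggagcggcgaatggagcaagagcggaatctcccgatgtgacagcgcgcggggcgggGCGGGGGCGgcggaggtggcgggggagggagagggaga
The Egr2 window held 1 CArG box, CCATATATGG, 72 to 63 bases before the start, and 2 matches to TGACG, 111 and 55 bases before it. The Egr4 window held 2 matches to TGACG, 177 and 109 bases before the RefSeq start, which lies 47 bases from the start of the counted exons. The Nab1 window held 3 matches to GCGNGGGCG, beginning 141, 109 and 38 bases before the start, and 1 match to TGACG. None of these matches overlapped another. The Nab2 window (chr10:127666704-127666953, minus strand) held none of these letters, and no window of the 4 held TATAAA. Windows of this length held a CArG box in 1.4% of 27025 genes, TGACG in 17.9%, GCGNGGGCG in 4.65% and TATAAA in 13%.

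The libraries held 15434620 to 23258949 counts on genes, with a median of 19964167 in WT and 19499276 in LPAR2-/- mice. All 6 members were among the 14897 genes that passed the filter on low counts. In the knockout check, Lpar2 had 27 to 66 counts in WT mice and 144 to 234 counts in the mice labelled LPAR2-/-, an increase of 2.01 on the log2 scale (SE 0.157, edgeR adjusted p = 8.22e-07). The target gene thus goes against the labels, although counts per gene do not show the deleted part of exon 2, and every direction below is that of the mice labelled LPAR2-/-. When the mice were clustered on all tested genes, LPAR2-/- mouse 3 fell together with the 7 WT mice. Values without it are given below for each member and for the counts of pairs, Fos ratios and pathway genes past the threshold, but not for cell type markers. In bulk tissue, fewer expressing cells and less RNA per cell cannot be told apart.

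The first comparison asked which members differed between the genotypes. Only Egr2 passed the threshold (adjusted p under 0.05 in edgeR's quasi-likelihood test over all genes), 1 of 6 members, whereas 6.77% of all tested genes were called in either direction and 3.46% as lower. All 4 Egr genes had a lower mean in the mice labelled LPAR2-/-, and the 2 Nab genes had means within 0.05 log2 units of WT. Over all genes tested the median log2 fold change was 0.00 and 48.9% of genes had a negative value. The differences of the Egr genes were of very unequal size, from −0.17 for Egr3 to −2.50 for Egr2.

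Egr2 encodes the family member known as Krox20, which also directs hindbrain patterning and peripheral myelination, and is counted on 2 exons of 2965 bases in all on chromosome 10 (mm10, 67537869 to 67542188, plus strand). Its counts in WT mice ranged from 22 to 142 with a median of 65, and in LPAR2-/- mice from 6 to 21 with a median of 11. The raw counts of both groups did not overlap, with 21 against 22 at the nearest, but raw counts are not scaled to depth. In CPM, the groups lay apart in either direction for 264 of 14897 tested genes, and Egr2 was not among them. Scaled to depth, Egr2 had 3.24 ± 2.12 CPM (SD, n = 7) in WT mice and 0.584 ± 0.346 CPM (SD, n = 7) in LPAR2-/- mice. On this scale LPAR2-/- mouse 7 (1.34 CPM) lay above the 2 lowest WT mice, WT mouse 3 and WT mouse 7 (1.28 CPM), while the other 6 LPAR2-/- mice lay below every WT mouse. Egr2 fell by 2.50 on the log2 scale (SE 0.445, 95% interval −3.45 to −1.55, edgeR adjusted p = 0.00441), and only 1 of all tested genes had a lower log2 fold change. Without LPAR2-/- mouse 3 the log2 fold change was −2.48 (edgeR adjusted p = 0.00944). The WT mice themselves spread over a 5.82-fold range, the widest among the 6 members.

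Egr1, also known as Zif268 and the member most often used to map activated neurons, lies on chromosome 18 (34861207 to 34864956, plus strand) with 2 counted exons of 3072 bases. WT mice had 657 to 1499 counts with a median of 1128, and LPAR2-/- mice had 516 to 1040 counts with a median of 819. All 7 LPAR2-/- mice lay below the WT median in CPM, and 5 of 7 WT mice lay above every LPAR2-/- mouse, but WT mouse 3 and WT mouse 7 overlapped them. The means were 54.9 ± 14.2 CPM (SD, n = 7) in WT and 38.2 ± 5.54 CPM (SD, n = 7) in LPAR2-/- mice. The log2 fold change was −0.52 (SE 0.155, 95% interval −0.85 to −0.19), with an unadjusted p = 0.00440 and an adjusted p = 0.0586 in edgeR, just outside the threshold. DESeq2 placed Egr1 past it (adjusted p = 0.00878), and so did edgeR without WT mouse 3 (adjusted p = 0.0151) or without WT mouse 7 (adjusted p = 0.0377). The other 19 alternatives left it outside, among them limma without a pseudocount (adjusted p = 0.106) and the omission of single mice, with adjusted p up to 0.113. Without LPAR2-/- mouse 3 the edgeR value was −0.57 (adjusted p = 0.0534).

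Egr3, a member that is induced together with Egr1 by synaptic activity, was counted on 4 exons of 4006 bases on chromosome 14 (70077445 to 70082613, plus strand). Its counts ranged from 1950 to 2924 (median 2640) in WT mice and from 1890 to 2719 (median 2270) in LPAR2-/- mice. The groups overlapped, with 6 of 7 LPAR2-/- mice below the WT median. The means were 133 ± 14.9 and 118 ± 10.1 CPM (SD, n = 7 each), a log2 fold change of −0.17 (SE 0.0688, 95% interval −0.32 to −0.03, edgeR adjusted p = 0.147).

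Egr4, the member without a NAB-binding domain, was counted on 2 exons of 2100 bases on chromosome 6 (85511122 to 85513542, minus strand). WT mice had 95 to 214 counts (median 153) and LPAR2-/- mice 88 to 156 counts (median 117). The lowest values of both groups were alike, at 5.08 CPM in each, and the highest LPAR2-/- mouse (7.30 CPM) was exceeded by 3 WT mice. The log2 fold change was −0.29 (SE 0.151, 95% interval −0.61 to 0.03, edgeR adjusted p = 0.266), on means of 7.61 ± 2.10 CPM in WT and 6.21 ± 0.794 CPM in LPAR2-/- mice (SD, n = 7 each).

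**Figure D1:**
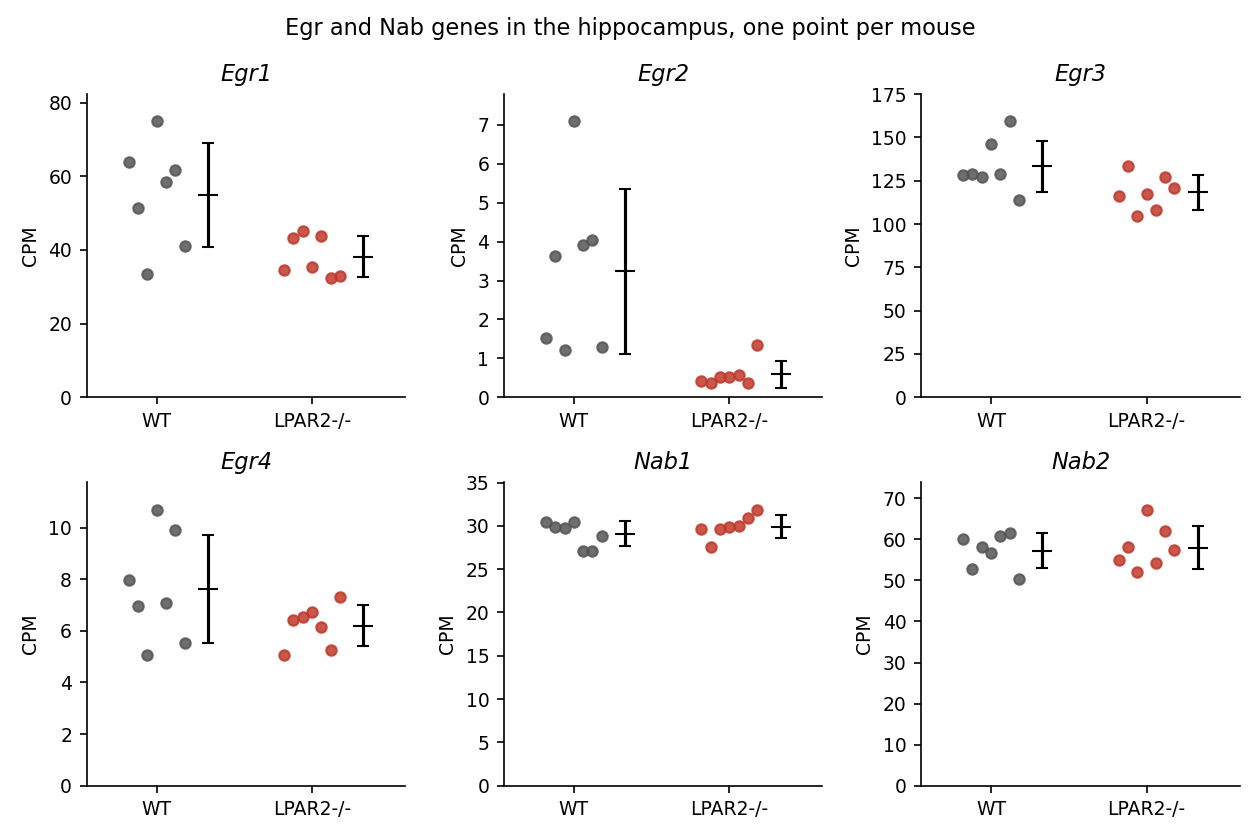
Level of each gene in CPM for 7 WT mice (grey) and 7 mice labelled LPAR2-/- (red). Each point is 1 mouse, the bar beside the points is the mean ± SD, and all axes start at 0. Egr2 falls from 3.24 to 0.584 CPM on average, Egr1 overlaps in its 2 lowest WT mice, and the Nab genes sit at the same height in both groups.

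The corepressor genes had nearly the same level in both genotypes. Nab1, on chromosome 1 (52455849 to 52500448, minus strand, 8 counted exons of 5088 bases), had 437 to 655 counts (median 586) in WT mice and 498 to 693 counts (median 570) in LPAR2-/- mice. The means were 29.1 ± 1.44 and 29.9 ± 1.35 CPM (SD, n = 7 each), with a log2 fold change of 0.04 (SE 0.0431, 95% interval −0.05 to 0.13, edgeR adjusted p = 0.632). Nab2, the feedback-regulated partner, had 861 to 1272 counts (median 1146) in WT mice and 898 to 1561 counts (median 1070) in LPAR2-/- mice. Its log2 fold change was 0.02 (SE 0.0598, 95% interval −0.11 to 0.15, edgeR adjusted p = 0.881), and its sign turned when single mice were left out. Without LPAR2-/- mouse 3 the log2 fold changes were −0.14 for Egr3, −0.31 for Egr4, 0.04 for Nab1 and 0.05 for Nab2, none of them past the threshold in edgeR (adjusted p from 0.207 to 0.682). Nab2 lies on chromosome 10 (127660918 to 127666703, minus strand, 7 counted exons of 2575 bases). Its exons overlap those of Stat6 (40 bases) and of the antisense gene Gm16229 (829 bases) on the other strand, from which the strand-specific counting by the authors separates it.

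**Figure D2:**
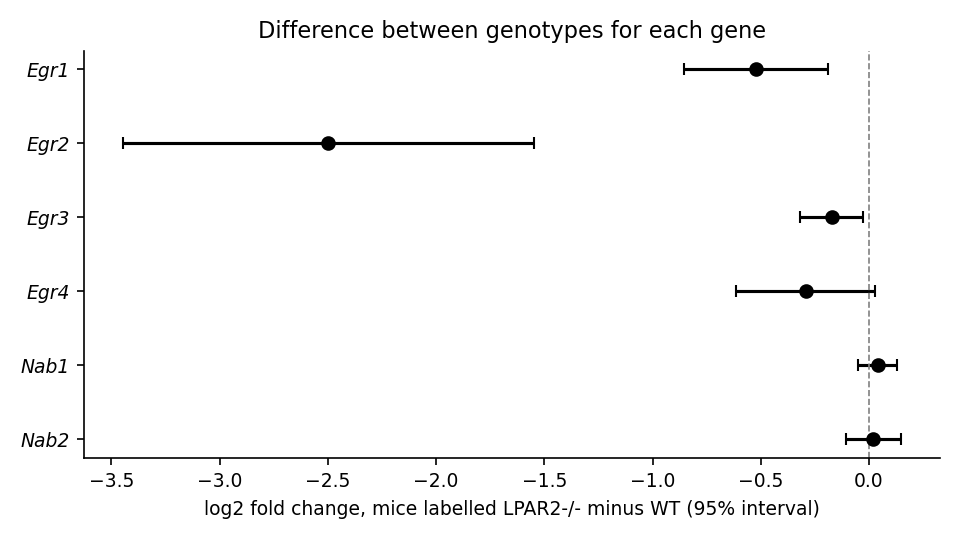
Log2 fold change of each gene, mice labelled LPAR2-/- minus WT, from edgeR with its 95% interval (n = 7 mice per genotype). The interval of Egr2 spans −3.45 to −1.55, and those of Nab1 and Nab2 lie within 0.15 of 0 on either side.

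The members also differed in how far mice of one genotype varied. In WT mice the coefficient of variation of CPM was 65.5% for Egr2, 27.6% for Egr4, 25.8% for Egr1 and 11.2% for Egr3, against 4.94% for Nab1 and 7.49% for Nab2. In LPAR2-/- mice it was 59.3% for Egr2, 14.5% for Egr1, 12.8% for Egr4 and 8.51% for Egr3, against 4.51% and 8.98% for Nab1 and Nab2. All 4 Egr genes thus had the lower value in LPAR2-/- mice, a description that was not tested. The LPAR2-/- libraries held only 6 to 21 Egr2 counts each, so counting error weighs most on this member.

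Levels of different genes were set side by side as CPM per kilobase of counted exon. In WT mice Egr3 was the most abundant with 33.3 ± 3.72, followed by Nab2 with 22.2 ± 1.66, Egr1 with 17.9 ± 4.61, Nab1 with 5.71 ± 0.282, Egr4 with 3.62 ± 0.999 and Egr2 with 1.09 ± 0.716 CPM per kilobase (SD, n = 7). The order was the same in LPAR2-/- mice, with means of 29.5, 22.5, 12.4, 5.88, 2.96 and 0.197 CPM per kilobase. It was also the same in the normalized values of the authors. Of the neighbours in this order, only Nab2 and Egr1 changed places in a mouse: Nab2 was above Egr1 in 6 of 7 WT mice and in 7 of 7 LPAR2-/- mice. The ranges of this pair overlapped in WT mice, and those of Egr3 and Nab2 overlapped in LPAR2-/- mice. Egr4 exceeded Egr2 in every mouse, by a median of 3.48-fold in WT and 17.8-fold in LPAR2-/- mice.

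Summed per kilobase, the 4 Egr genes reached 44.8 to 68.4 CPM in WT mice (median 55.9) and 42.8 to 50.5 CPM in LPAR2-/- mice (median 44.4). Egr3 made up a median of 60.2% of this sum in WT and 66.3% in LPAR2-/- mice, and Egr1 31.3% and 26.2%. The share of Egr2 was a median of 2.06% in WT mice and 0.395% in LPAR2-/- mice, whereas that of Egr4 was 6.21% and 6.61%. The sum of the NAB-binding members Egr1, Egr2 and Egr3 stood at a median of 1.82 times the sum of Nab1 and Nab2 in WT mice (range 1.51 to 2.26) and at 1.49 times in LPAR2-/- mice (range 1.28 to 1.70). The ranges of the genotypes overlapped for each of the 4 shares and for the last ratio. For the share of Egr2 they were 0.892% to 3.50% in WT and 0.239% to 1.01% in LPAR2-/- mice. These values are descriptions of RNA levels.

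Members were then compared with each other within each mouse, as the difference of their log2 CPM, in which the scaling between libraries cancels. Of 15 pairs, 8 differed between the genotypes (two-sided exact permutation test, Benjamini-Hochberg adjusted over the pairs), and 5 of these 8 involve Egr2, so the pairs are not independent of each other. Relative to Egr4, Egr2 was at −1.42 ± 0.683 log2 units in WT mice and at −3.30 ± 0.460 in LPAR2-/- mice (SD, n = 7 each). All 7 LPAR2-/- mice lay below all 7 WT mice in this ratio, although mouse 7 stood closest to them at −2.35 against a lowest WT value of −2.32. The difference of −1.88 had an exact permutation p = 0.000583, the smallest that 7 against 7 mice can give, and an adjusted p = 0.00437. Egr2 also fell relative to Egr3 (−1.97), Nab1 (−2.18) and Nab2 (−2.16), each with an adjusted p = 0.00437 in the exact test. Egr1 rose relative to Egr2 by 1.65 (exact test, adjusted p = 0.00699). The decrease of Egr2 in these mice was known from the study, so its ratio to any member that moves little must fall. The 5 calls with Egr2 therefore restate its own log2 fold change of −2.50 and are no separate evidence.

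Relative to the corepressors, Egr1 fell by 0.53 log2 units against Nab1 and by 0.51 against Nab2 (exact permutation test, adjusted p = 0.0328 for both), with all 7 LPAR2-/- mice below the WT median in each ratio. Egr3 fell by 0.19 against Nab2 (exact test, adjusted p = 0.0306), with 6 of 7 LPAR2-/- mice below every WT mouse. These 3 calls were less steady than those of Egr2: when single mice were left out, the 2 Egr1 ratios stayed past the threshold in 5 of 14 fits each and the Egr3 ratio in 9 of 14. All 5 ratios with Egr2 stayed past it in 14 of 14. The Nab genes had nearly the same level in both genotypes, so the 3 ratios against them largely restate the lower values of Egr1 and Egr3. Neither gene passed in edgeR adjusted over all genes (adjusted p = 0.0586 for Egr1 and 0.147 for Egr3), whereas the ratios were adjusted over 15 pairs only. The number of pairs past the threshold was 5 without LPAR2-/- mouse 4 or 6 or without WT mouse 2, 4 or 6, 13 without WT mouse 3, and 8 without LPAR2-/- mouse 3.

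The remaining 7 pairs did not pass. Egr1 against Egr4 differed by −0.24 (adjusted p = 0.0586 in the exact test), Egr3 against Nab1 by −0.21 (adjusted p = 0.0586), and Egr1 against Egr3 by −0.32 (adjusted p = 0.102). Egr4 differed by −0.30 against Nab1 and by −0.27 against Nab2 (exact test, adjusted p = 0.132 for both), and Egr3 against Egr4 by 0.09 (adjusted p = 0.583). The ratio of Nab1 to Nab2 was −0.97 ± 0.152 log2 units in WT mice and −0.95 ± 0.135 in LPAR2-/- mice (SD, n = 7 each), with an adjusted p = 0.767 in the exact test.

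**Figure D3:**
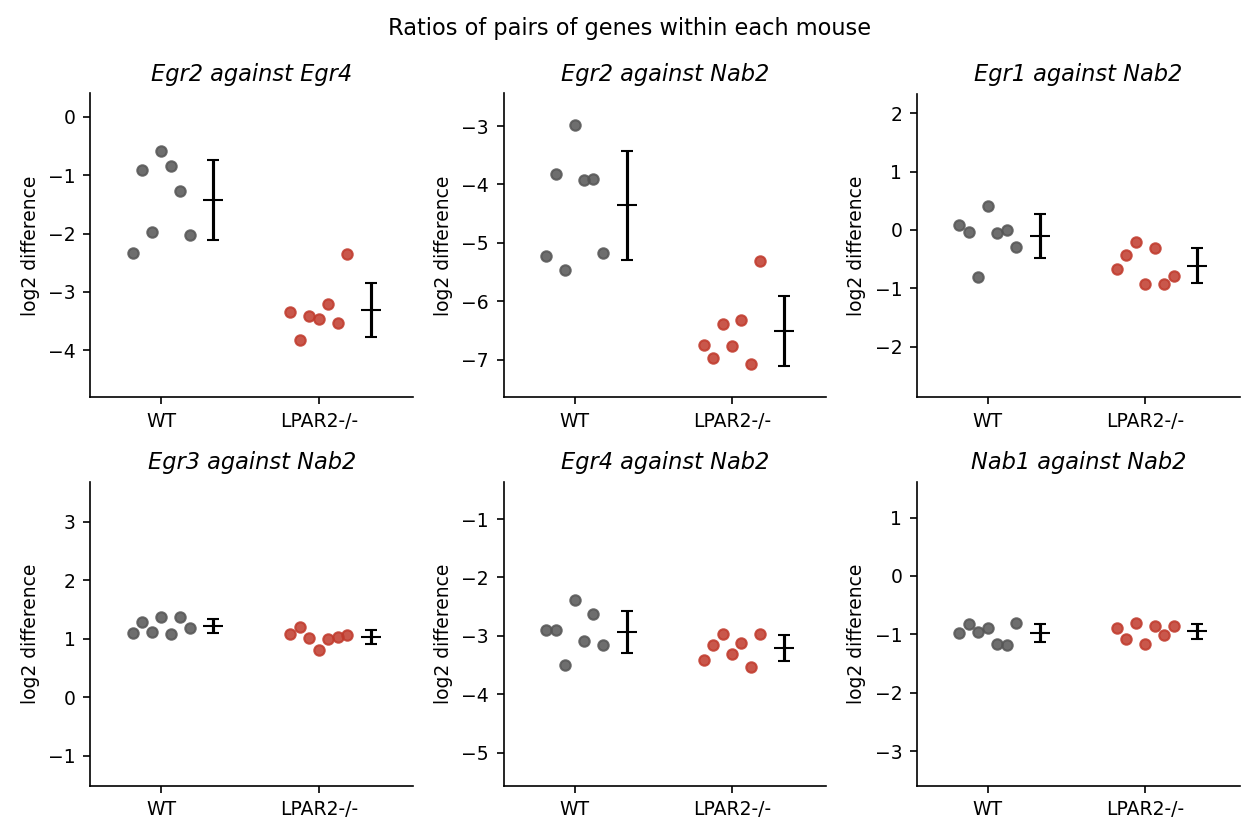
Difference of log2 CPM between 2 genes within each mouse, for 7 WT mice (grey) and 7 mice labelled LPAR2-/- (red), with mean ± SD beside the points. Every panel spans the same number of log2 units. Egr2 against Egr4 separates the genotypes, narrowly for LPAR2-/- mouse 7 at −2.35, and Nab1 against Nab2 lies at the same height in both.

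Fos, the activity-induced AP-1 subunit most often measured beside the Egr genes, was used as a common yardstick. Its decrease in these mice was known from the study, so a gene that moves little must rise relative to it, and a positive difference below says only that the member fell less than Fos. Its counts ranged from 88 to 451 in WT mice and from 34 to 110 in LPAR2-/- mice, with a log2 fold change of −1.86 (SE 0.352, edgeR adjusted p = 0.00781). In each mouse, Egr3 and Egr4 stood higher relative to Fos in LPAR2-/- than in WT mice, by 1.56 and 1.48 log2 units, with every LPAR2-/- mouse above every WT mouse (exact permutation test, p = 0.000583, adjusted p = 0.00117 over 4 ratios). Egr1 stood higher by 1.24 (adjusted p = 0.00389 in the exact test). The number of these ratios past the threshold was also 3 without LPAR2-/- mouse 3. The ratio of Egr2 to Fos was −2.10 ± 0.262 log2 units in WT mice and −2.50 ± 0.532 in LPAR2-/- mice (SD, n = 7 each), a difference of −0.41 that did not pass (exact test, adjusted p = 0.0956). It passed with a prior count of 0.5 (−0.54, adjusted p = 0.0414) and without LPAR2-/- mouse 7 (−0.52, adjusted p = 0.0309). LPAR2-/- mouse 7, the highest of its group for Egr2, was also the highest of its group for Fos, with 5.12 CPM against 5.13 CPM in the lowest WT mouse.

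Whether members moved together between mice of one genotype was examined in 30 relations, 15 in each genotype. In WT mice, Egr1 and Egr4 rose together (Pearson r = 0.93, exact permutation p = 0.00159, adjusted p = 0.0476, n = 7). The Spearman rho was 0.96 (exact p = 0.00278, adjusted p = 0.0833), and r was 0.83 without the 2 mice farthest from the Egr1 median. By Pearson r, another 2 relations in WT mice had an unadjusted p under 0.05 and failed the correction, Egr2 with Egr4 (r = 0.80, exact p = 0.0442, adjusted p = 0.384) and Egr3 with Egr4 (r = 0.84, exact p = 0.0282, adjusted p = 0.384). Their r fell to 0.49 and 0.54 without the 2 extreme mice. By Spearman rho, Egr2 with Egr3 (rho = 0.93, exact p = 0.00675, adjusted p = 0.101) and Egr1 with Egr2 (rho = 0.79, exact p = 0.0480, adjusted p = 0.288) also failed the correction. In LPAR2-/- mice none of the 15 relations had an unadjusted p under 0.05, and Egr1 with Egr4 had r = 0.25 (exact p = 0.533, adjusted p = 0.910). Whether the correlations differ between the genotypes was not tested. WT mouse 4 was the highest of its group for Egr1, Egr2, Egr4 and Fos, and WT mouse 3 and WT mouse 7 were the 2 lowest for each of these genes.

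**Figure D4:**
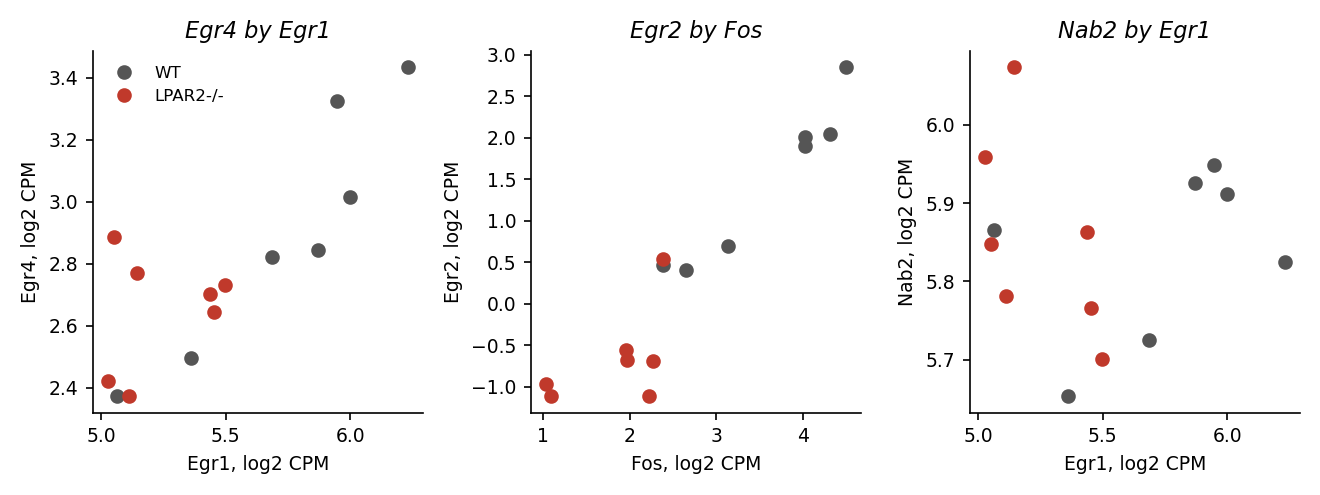
Log2 CPM of pairs of genes, 1 point per mouse, for WT (grey) and mice labelled LPAR2-/- (red). Egr4 rises with Egr1 among WT mice (r = 0.93), Egr2 is plotted against Fos, and Nab2 spans a narrow range at every level of Egr1.

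For each member, the 3 genes with the most similar values over the 14 mice were listed, by Pearson r of log2 CPM after subtraction of the genotype means. These are descriptions over 14 libraries that share tissue and preparation. For Egr1 they were Nr4a1, an activity-induced nuclear receptor (r = 0.93), the clock gene Per2 (r = 0.84) and Tmem126b (r = 0.84). For Egr4 they were 6430562O15Rik (r = 0.90), Fos (r = 0.86) and the AP-1 subunit Junb (r = 0.84), with Egr1 at rank 5 and Egr2 at rank 10 of 14896 genes. For Egr2 they were Ints8 (r = 0.93), Arid4a (r = 0.89) and Irak2 (r = 0.89), and Fos was at rank 14 (r = 0.85). For Egr3 they were Anxa6 (r = 0.91), Inpp4b (r = 0.91) and Fam84a (r = 0.90). They were St3gal6 (r = 0.86), Sox3 (r = 0.83) and Gpr108 (r = 0.79) for Nab1, and Rnf126 (r = 0.89), 4933406C10Rik (r = 0.86) and Hes6 (r = 0.82) for Nab2.

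Among 15 other transcription factors induced by activity, 8 were called lower in LPAR2-/- mice and 0 higher. The median of the list was −0.42 on the log2 scale, and 7 were called without LPAR2-/- mouse 3. The study had picked several of them because they were lower in these mice, and the count is no independent evidence of a direction. Besides Fos they were Fosb (−1.46, edgeR adjusted p = 0.000700), Npas4 (−1.19, adjusted p = 0.00537), Atf3 (−0.82, adjusted p = 0.0479), Nr4a1 (−0.65, adjusted p = 0.0360), Nr4a2 (−0.63, adjusted p = 0.00320), Fosl2 (−0.60, adjusted p = 0.00255) and Klf10 (−0.42, adjusted p = 0.0203). Egr2 had the lowest value of all these genes, and Egr1 lay between Fosl2 and Klf10. The 3 most abundant of this list per length, the AP-1 subunits Jun (0.14, adjusted p = 0.268) and Jund (0.02, adjusted p = 0.932) and the nuclear receptor Nr4a3 (−0.20, adjusted p = 0.562), did not pass in edgeR, nor did Fosl1 (0.22, adjusted p = 0.0603).

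**Figure D5:**
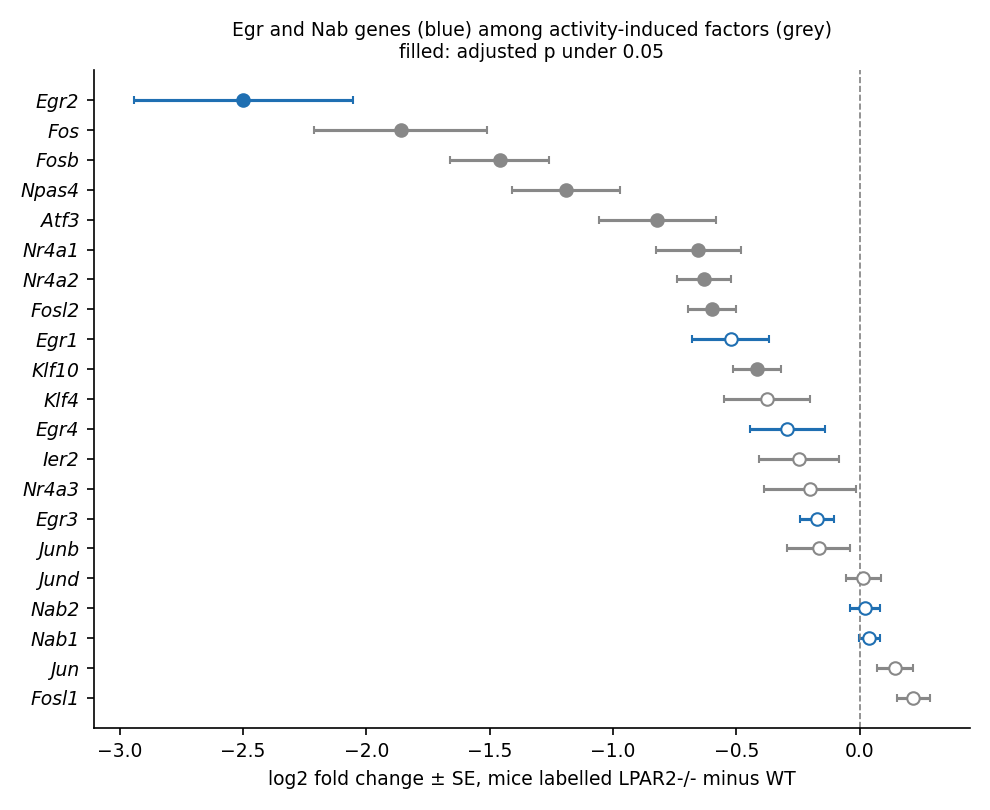
Log2 fold change ± SE, mice labelled LPAR2-/- minus WT (n = 7 each), of the Egr and Nab genes (blue) and 15 other activity-induced transcription factors (grey), with filled points for an edgeR adjusted p under 0.05. Egr2 has the lowest value at −2.50, Egr1 lies between Fosl2 and Klf10, and the Nab genes lie beside Jund near 0.

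Of 16 genes for the kinases and transcription factors that lead to Egr transcription, 1 was higher and 1 lower (median log2 fold change 0.03). Mapk3, the gene of the kinase ERK1, rose by 0.29 (SE 0.0572, edgeR adjusted p = 0.00731). Creb1, the gene of CREB, fell by 0.26 (SE 0.0664, edgeR adjusted p = 0.0291). Srf, the gene of serum response factor, was at 0.04 on the log2 scale (adjusted p = 0.660) and the ELK gene Elk1 at −0.02 (adjusted p = 0.917 in edgeR). Map2k1, the gene of the kinase MEK1 and among the most abundant of this list per length, did not pass (0.10, edgeR adjusted p = 0.280). The count moved with single mice, from 1 to 3 when they were left out one by one. It was 3 without LPAR2-/- mouse 3, and 1 without LPAR2-/- mouse 1, 2, 4 or 5 or without WT mouse 2, 4, 5 or 6.

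None of 13 genes of NuRD subunits, through which NAB proteins repress, passed the threshold (median log2 fold change −0.01). The edgeR unadjusted p of each was between 0.108 and 0.966, and none passed in DESeq2 or limma. Chd4, the gene of the subunit that NAB2 contacts, had a log2 fold change of −0.01 (SE 0.0467, adjusted p = 0.928). The most abundant per length were Chd3 (0.06), Rbbp7 (0.06) and Hdac2 (−0.05), with adjusted p from 0.337 to 0.606 in edgeR.

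Of 8 reported neuronal targets of EGR proteins, only Arc, a regulator of synaptic AMPA receptors that is itself induced by activity, passed the threshold. It had 75.2 ± 21.4 CPM in WT and 39.1 ± 10.2 CPM in LPAR2-/- mice (SD, n = 7 each), a log2 fold change of −0.94 (SE 0.201, edgeR adjusted p = 0.0155). The median of the list was 0.01, and its most abundant genes per length were Dlg4 (0.01), Syn1 (0.05) and Syn2 (−0.05), which encode a postsynaptic scaffold and 2 synaptic vesicle proteins and did not pass (adjusted p from 0.704 to 0.920 in edgeR).

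Of 6 targets of EGR2 reported in myelinating Schwann cells, 5 were tested and 1 was called, Pmp22, which encodes a myelin membrane protein and rose by 0.36 (SE 0.0880, edgeR adjusted p = 0.0241). It was not called without WT mouse 2. Without LPAR2-/- mouse 3 this list and the neuronal targets again had 1 call each and the NuRD list 0. The most abundant per length were Mbp, Mag and Pmp22, and Mbp (0.17, adjusted p = 0.750) and Mag (0.11, adjusted p = 0.875) did not pass. Of the markers that define Schwann cells, Foxd3 had 0 counts in all 14 libraries and Pmp2 at most 3.

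The markers of cell types and regions in these libraries were compared between the genotypes. None of the 5 neuronal markers passed, with summed levels of 4890 to 5887 CPM in WT and 4499 to 5764 CPM in LPAR2-/- mice. Negative log2 fold changes were found for 4 of the 5 (median −0.05), and Map2 lay just outside the threshold (−0.12, edgeR adjusted p = 0.0524). Of the dentate granule cell markers 1 of 5 was higher (Tdo2), and of the CA3 markers 1 of 4 was lower (Prss23), with negative values for all 4 (median −0.11). Of the meningeal markers 1 of 6 passed (Lum, higher), but 5 of 6 had a positive log2 fold change, with a median of 1.05. Their mean sum was 117 CPM in WT and 216 CPM in LPAR2-/- mice, with overlapping ranges of 49.3 to 253 and 67.7 to 346 CPM. All 6 striatal markers had a positive log2 fold change (median 0.18) and none passed in edgeR, with sums of 57.7 to 68.2 CPM in WT and 67.1 to 77.8 CPM in LPAR2-/- mice, ranges that overlapped little. All 5 microglial markers also had positive values (median 0.09, none past the threshold), with sums of 301 to 366 and 304 to 373 CPM. Positive values without a call were likewise found for all 5 oligodendrocyte markers (median 0.20) and for the 3 choroid plexus markers tested (median 1.92). Single libraries stood out for some lists: LPAR2-/- mouse 2 for choroid plexus (285 CPM, other mice 25.4 to 51.1), LPAR2-/- mouse 3 for oligodendrocytes (2054 CPM, other mice 430 to 1073) and WT mouse 2 for CA1 (325 CPM, other mice 82.0 to 166). Egr2 passed the threshold without each of these mice in turn. The part of tissue composition in the values of the members was not tested.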

How the data were processed

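RNA was extracted with Trizol, depleted of ribosomal RNA and sequenced. The authors used cutadapt 1.18 for trimming, STAR for alignment to mm10 and featureCounts 1.6.3 for counting on exons per gene, on the reverse strand. The deposited table holds raw counts for 14 libraries, with the exon length per gene. A deposited table of 16510 normalized entries, which the authors made with DESeq2 1.22.2, had lost its decimal points. They were restored, and 100% of 182171 values of at least 1 lay within 1% of the deposited log2 columns. Columns of the authors' own comparisons were not used.

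Of 24421 genes, 14897 passed filterByExpr. Counts were normalized by TMM and compared between 7 and 7 mice in edgeR 4.0.16 (R 4.3.3; quasi-likelihood F test, robust, no covariates), adjusted by Benjamini-Hochberg over all genes. CPM per mouse used TMM, and log2 CPM a prior count of 2. Ratios within mice were tested by two-sided exact permutation over all arrangements of the mice, and correlations over all pairings. The members and gene lists were chosen with earlier results of these data known. Named genes were the members, Lpar2, Fos, list genes past the threshold or among the 3 most abundant per length, and the 3 genes most similar to each member. Fosl1, Srf, Elk1 and Chd4 were named besides. Some list genes are not reported here. Alternatives were DESeq2 1.42.0, limma 3.58.1 on the normalized values with a pseudocount of 1 and without, other size factors, other filters (none, or 10 counts in every library), a prior count of 0.5, a replicate block by mouse number, and omission of single mice. A count of 0 allows up to 3 counts, for counting error only. The libraries held 15434620 to 23258949 counts. No 2 libraries of a genotype were copies (in 42 pairs, chi-square divided by its degrees of freedom was at least 3.41). Labels do not say that the mice came from separate litters or cages. The procedures were tested on simulated data.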

Additional observations from a re-analysis of the deposited data

Results flagged for a closer look

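Among 12 groups of 7 mice, 6 members in each genotype, the Egr2 value of 1 mouse lay far from the others of its group. LPAR2-/- mouse 7 had a log2 CPM of 0.53 for Egr2, and the gap to the next mouse was 0.658 of the whole range of the group. The limit used for such gaps is one that chance passes in about 1 of 20 groups. This mouse had 21 Egr2 counts, in the library with the lowest total of all 14 (15434620 counts), and the other 6 mice of its group had 6 to 12. Without it the log2 fold change of Egr2 had the widest departure from 0 of all 14 such fits, −2.80, against −2.50 with all mice.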

How the results depend on the processing

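Egr2 kept its direction and stayed past the threshold in all 21 alternatives in which it was tested, with log2 fold changes from −2.80 to −2.18 with 1 mouse left out, and −0.74 in limma with a pseudocount of 1, which pulls low values together. The number of members past the threshold was 0 with at least 10 counts in every library, because that filter removes Egr2 (6 counts in 1 library). It was 2 with DESeq2, by the addition of Egr1, and 1 to 2 with each mouse left out. The number of pairs of members past the threshold, 8 in all mice, ranged from 5 to 13 with each mouse left out: 13 without WT mouse 3, and 5 without LPAR2-/- mouse 4 or 6 or without WT mouse 2, 4 or 6. The cause was not tested. The direction turned for Nab2, whose log2 fold change ranged from −0.0173 to 0.0460 with 1 mouse left out, and for the ratio of Nab1 to Nab2 (−0.0132 to 0.0585). The labels do not say whether mouse numbers pair the mice. Same-numbered mice had correlations of −0.33 to 0.31. For 3 of 7 LPAR2-/- mice (1, 4 and 6) the same-numbered WT mouse was the most similar one, so a pairing by number was not settled. With a replicate block by mouse number 1 member passed (Egr2, −2.36, edgeR adjusted p = 0.0216) and 5 of 15 pairs did in the exact sign-flip test, the ratios of Egr1 to Egr2, Nab1 and Nab2 having adjusted p of 0.0781, 0.0879 and 0.117. Under the block the reported neuronal targets and the Schwann cell targets each had 0 calls, and the inputs to Egr transcription had 1 in place of 2. Egr1 had an adjusted p = 0.154 there in edgeR. Depth limits Egr2 most, with 6 to 21 counts per LPAR2-/- library.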
